A study of Mus musculus with 4 samples.

Results

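The 32 genes described here make cholesterol, sense it, move it between membranes or carry it into and out of the cell. They were taken as a named list of genes of sterol synthesis and transport, by symbol and not by measured values, and 30 of the 32 had at least 1 probe set under their symbol, with 70 probe sets between them. These 30 stand among 18193 genes read on the same arrays. Acat2 and Nr1h2 were not analysed here. Total RNA was hybridised to Affymetrix 3' expression arrays after basal interfollicular cells of mouse tail epidermis had been sorted as positive for integrin alpha 6, a basal keratinocyte marker, and as lacking CD34, which marks bulge stem cells. The SmoM2 group (K14CreER:SmoM2, 2 arrays) expressed SmoM2, a constitutively active form of the Hedgehog transducer Smoothened, with Sox9 intact. The Sox9cKO group (K14CreER:SmoM2:Sox9cKO, 2 arrays) expressed SmoM2 with the transcription factor Sox9 conditionally deleted. All mice had received 2.5 mg of tamoxifen on 10 consecutive days, and cells were taken 9 weeks after the first dose. K14CreER is a tamoxifen-dependent Cre recombinase driven by a basal keratinocyte promoter, so SmoM2 and the Sox9 deletion were switched on by the same recombinase. The labels state neither the age of the mice nor how many animals gave each sample, and the p-values therefore measure only the spread between these samples, which may be technical. Cells without SmoM2 were not analysed here. In sorted populations such as these, fewer cells of a type and less RNA per cell cannot be told apart.

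Cholesterol is built from acetyl-CoA. The mevalonate pathway first makes isoprenoid units, these are joined into squalene, squalene is closed into lanosterol, and a series of demethylation, reduction and isomerisation steps turns lanosterol into cholesterol. When sterol in the endoplasmic reticulum is low, Scap escorts the transcription factor SREBP2 (encoded by Srebf2) to the Golgi, where it is cleaved and then activates most genes of the pathway, while the Insig proteins hold it back when sterol is plentiful. The LXR receptors answer to oxysterols, oxidised forms of cholesterol, and switch on genes that export cholesterol or limit its uptake. In epidermis, keratinocytes make much of their own cholesterol, which becomes a main lipid of the skin barrier, and Smoothened itself is a sterol-binding protein.

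Promoters of the genes were searched for short motifs, which played no part in listing the genes. Promoter sequences (RefSeq, GRCm38.p6) were at hand for 25 of the 32 genes, as 33 promoters, and the 250 bases before each annotated start were searched on both strands. CCAAT, the core of the site bound by NF-Y, a partner of SREBP2 at sterol genes, stood in 20 of the 33 (60.6%), against 33.8% of all 32851 promoters of the same length. The E-box CACGTG stood in 6 of the 33 (18.2%), against 6.02% of all. TCACNCCAC, a form of the sterol response element, stood in 1 of the 33 (3.03%), that of Hmgcs1, against 1.05% of all. The motifs do not overlap one another in the sequences shown. A match is a description of the letters and not a binding site. The 150 bases before the start are printed for Hmgcs1, which holds the sterol response element match, for Idi1, the gene with the smallest p among the 30, for Mylip, the gene with the largest difference, and for Sc5d, the gene with a probe set that passed the test. Capitals mark the motifs. CCAAT on the opposite strand reads ATTGG.
Hmgcs1 (chr13:119690201-119690350, + strand): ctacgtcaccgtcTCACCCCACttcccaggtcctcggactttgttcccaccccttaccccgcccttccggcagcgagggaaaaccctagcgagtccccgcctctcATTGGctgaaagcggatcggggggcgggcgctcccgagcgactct
Idi1 (chr13:8885456-8885605, + strand): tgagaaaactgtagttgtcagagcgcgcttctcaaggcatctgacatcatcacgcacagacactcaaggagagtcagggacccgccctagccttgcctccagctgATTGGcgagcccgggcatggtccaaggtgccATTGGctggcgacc
Mylip (chr13:45389592-45389741, + strand): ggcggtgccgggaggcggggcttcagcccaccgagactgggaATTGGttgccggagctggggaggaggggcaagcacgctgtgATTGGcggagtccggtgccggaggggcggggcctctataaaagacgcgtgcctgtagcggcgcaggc
Sc5d (chr9:42264301-42264450, - strand): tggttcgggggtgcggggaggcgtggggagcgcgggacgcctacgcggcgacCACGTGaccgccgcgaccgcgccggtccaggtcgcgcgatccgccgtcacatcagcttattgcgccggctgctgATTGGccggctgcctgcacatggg
In these windows CCAAT stands once in Hmgcs1 and Sc5d, and at 2 places each in Idi1 and Mylip.

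The 4 arrays had median log2 signals between 5.45 and 5.48, and the correlation across probe sets was 0.991 within each genotype and between 0.978 and 0.980 across genotypes. Sox9 fell by 3.89 on the log2 scale (SE 0.32, adjusted p = 0.00159 over probe sets, limma) at 1 of its 3 probe sets, from 10.21 and 10.02 to 6.75 and 5.70, while the others differed by -0.75 and -0.41 (adjusted p = 0.143 and 0.298). Their place relative to the deleted part was not given in the sources used here. The basal keratin Krt14 had log2 signals of 13.15 to 13.76 and Krt5 of 13.20 to 13.41, while Cd34 read 3.75 to 4.15. The other bulge markers that were read all stood above Cd34. Among them, Postn read 12.01 to 12.69, Krt15 11.38 to 12.14 and Lgr5 9.20 to 9.53, while Foxc1 went down to 4.38 in Sox9cKO replicate 2. The suprabasal keratin Krt10 was also present in every array, at 12.94 to 13.66.

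No gene of sterol synthesis or transport passed the test. Of the 30 genes, 0 were called at an adjusted p under 0.05 by limma, where 6.19% of all genes were called (2.66% higher and 3.53% lower in Sox9cKO). The smallest adjusted p was 0.115. With the replicate number as a block, a pairing that no label states, 1 of the 30 was called (Mylip). Without Sox9cKO replicate 2, 1 of the 30 was called (Mylip). At an unadjusted p under 0.05, 7 of the 30 differed (23.3%), against 17.8% of all genes. Of these 7, 6 were lower in Sox9cKO (9.01% of all genes were) and 1 was higher. These were Idi1, Abca1, Mvd, Mylip, Dhcr7 and Npc2, which were lower, and Sqle, which was higher.

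The differences were small and leaned to one side. The log2 difference, Sox9cKO minus SmoM2, was below 0 for 25 of the 30 genes, and for 8419 of all 18193 genes. Its median was -0.20 against 0.02 over all genes, and it ran from -0.69 for Mylip to 0.47 for Sqle. With arrays centred on their medians 24 were below 0, Ebp having turned, and without Sox9cKO replicate 2 there were 19, with a median of -0.089. Both Sox9cKO arrays lay below both SmoM2 arrays for 15 of the 30 genes, against 21.8% of all genes. They lay above for 4 genes (Sqle, Sc5d, Insig2 and Stard4), against 26.0% of all genes. Counted in either direction, arrays did not overlap for 19 of the 30 genes, against 47.9% of all genes. The 95% interval of the difference, not adjusted for the number of genes, lay between a 2-fold fall and a 2-fold rise for 29 of the 30, the exception being Mylip, whose interval ran from -1.29 to -0.09. The median standard error of the difference was 0.17 for these genes and 0.15 over all genes.

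**Figure D1:**
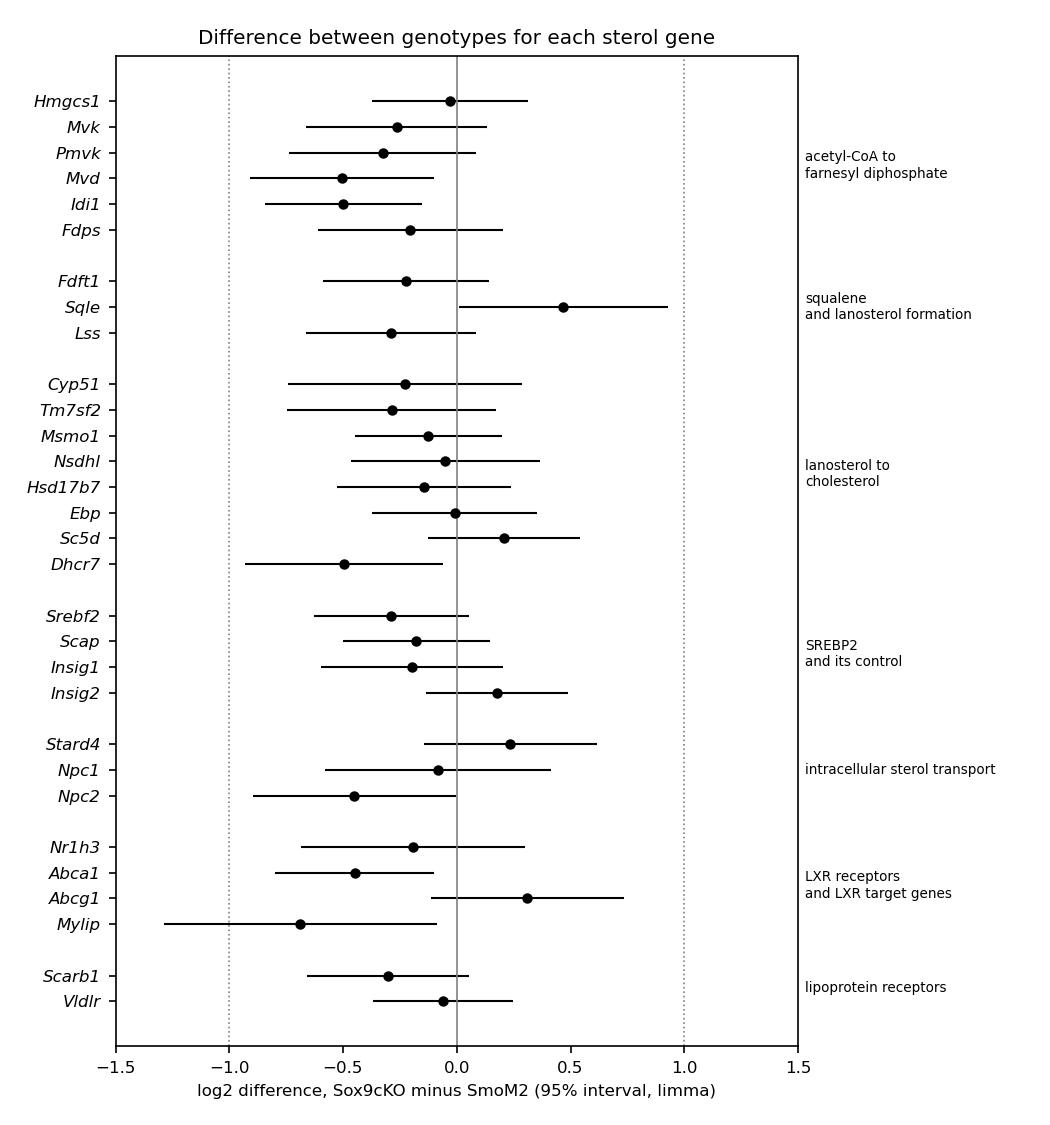
Log2 difference between Sox9cKO and SmoM2 (points, 2 arrays each) for the 30 sterol genes, with the 95% interval from limma (bars), grouped by role; dotted lines mark a 2-fold fall and a 2-fold rise. The points run from -0.69 for Mylip to 0.47 for Sqle, 25 of the 30 lie below 0, and 7 of the intervals leave out 0.

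The enzymes that carry acetyl-CoA to farnesyl diphosphate had lower means in Sox9cKO, at the probe set used for each gene, without passing the test. All 6 that were read had negative differences there, with a median of -0.29. Both Sox9cKO arrays lay below both SmoM2 arrays for 4 of them, as they did for 21.8% of all genes. Idi1, the isomerase that interconverts the isoprenoid building blocks, read 11.72 and 11.51 in SmoM2 and 11.19 and 11.05 in Sox9cKO (replicate 1 first, here and in what follows), a log2 difference of -0.50 (SE 0.15, adjusted p = 0.115). Every Sox9cKO value of Idi1 at this probe set lay below every SmoM2 value, by a gap larger than the distance between replicates of either genotype. The other Idi1 probe set read 10.34 and 10.56 in SmoM2 and 10.07 and 10.32 in Sox9cKO (difference -0.26, limma adjusted p = 0.545 over probe sets). Its arrays did not overlap either, but replicates were further apart than the nearest arrays of the genotypes. Mvd, the decarboxylase that makes isopentenyl diphosphate, read 8.14 and 7.86 in SmoM2 and 7.66 and 7.33 in Sox9cKO (difference -0.50, SE 0.17, adjusted p = 0.171). The Mvd arrays stood in genotype order too, but replicates of each genotype were further apart than the nearest arrays of the genotypes. Pmvk, the kinase that phosphorylates phosphomevalonate, read 9.30 and 8.90 in SmoM2 and 8.86 and 8.68 in Sox9cKO (difference -0.32, adjusted p = 0.408). Mvk, the kinase before it, read 9.20 and 8.80 against 8.70 and 8.78 (difference -0.26, adjusted p = 0.505). In both kinases, at these probe sets, SmoM2 replicate 1 stood above the other arrays, which lay close together. The other Mvk probe set gave a positive difference, 0.29, with arrays that did not overlap. Fdps, which makes farnesyl diphosphate, overlapped between genotypes, at 11.20 and 10.84 against 10.93 and 10.70 (difference -0.20, adjusted p = 0.643). Hmgcs1, the synthase that makes HMG-CoA and a widely read SREBP2 target, was nearly level, at 12.34 and 12.15 against 12.29 and 12.14 (difference -0.03, SE 0.15, 95% interval -0.37 to 0.31). Its other probe sets gave 0.08, 0.03, -0.09 and -0.45, all with overlapping arrays.

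Of the enzymes that form squalene and lanosterol, only Sqle had a positive difference at the probe set used for the gene. Sqle, the squalene epoxidase and a control point of the pathway, read 11.09 and 10.96 in SmoM2 and 11.76 and 11.23 in Sox9cKO, a difference of 0.47 (SE 0.19, adjusted p = 0.268). Its Sox9cKO arrays lay above its SmoM2 arrays but 0.53 apart from each other, which is more than the difference between the genotypes. Fdft1, the squalene synthase that acts before Sqle, read 11.30 and 11.03 against 11.03 and 10.86 (difference -0.22, adjusted p = 0.547). Lss, the cyclase that acts after Sqle and gives lanosterol, read 9.38 and 9.22 against 9.16 and 8.86 (difference -0.29, adjusted p = 0.416). The gap between the nearest arrays of the genotypes was under 0.1 for both Fdft1 and Lss at these probe sets. Other Fdft1 probe sets gave 0.02, 0.13 and 0.43, the same direction as Sqle. With probe sets averaged the Fdft1 difference was 0.09. Other Lss probe sets gave -0.37 and 0.04. Whether Sqle differed from Fdft1 and Lss in its response was not tested.

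The enzymes that turn lanosterol into cholesterol had a median difference of -0.13, with 7 of 8 below 0. Dhcr7, the reductase of the last step in 1 branch of the pathway, showed the largest difference of these, at 10.21 and 9.99 in SmoM2 and 9.83 and 9.38 in Sox9cKO (difference -0.50, SE 0.18, adjusted p = 0.212). The Dhcr7 arrays did not overlap between genotypes, and the Sox9cKO replicates were 0.44 apart. Cyp51, the lanosterol demethylase, read 10.31 and 10.30 in SmoM2 and 10.41 and 9.74 in Sox9cKO (difference -0.23, adjusted p = 0.687). Its low value at this probe set stood in Sox9cKO replicate 2 alone, and without that array the difference was 0.10. Msmo1, a methylsterol monooxygenase that acts further along, read 11.22 and 11.34 against 11.21 and 11.10 (difference -0.13, adjusted p = 0.732). The nearest Msmo1 arrays of the genotypes were less than 0.01 apart. Sc5d, a sterol desaturase, read 9.41 and 9.24 against 9.59 and 9.47 at the probe set used for the gene, a difference of 0.21 (adjusted p = 0.542), and is described further by its other probe sets. Tm7sf2, Nsdhl, Hsd17b7 and Ebp, a reductase, a decarboxylating dehydrogenase, a ketoreductase and an isomerase of the same stretch, had overlapping arrays and differences between -0.29 and -0.01.

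**Figure D2:**
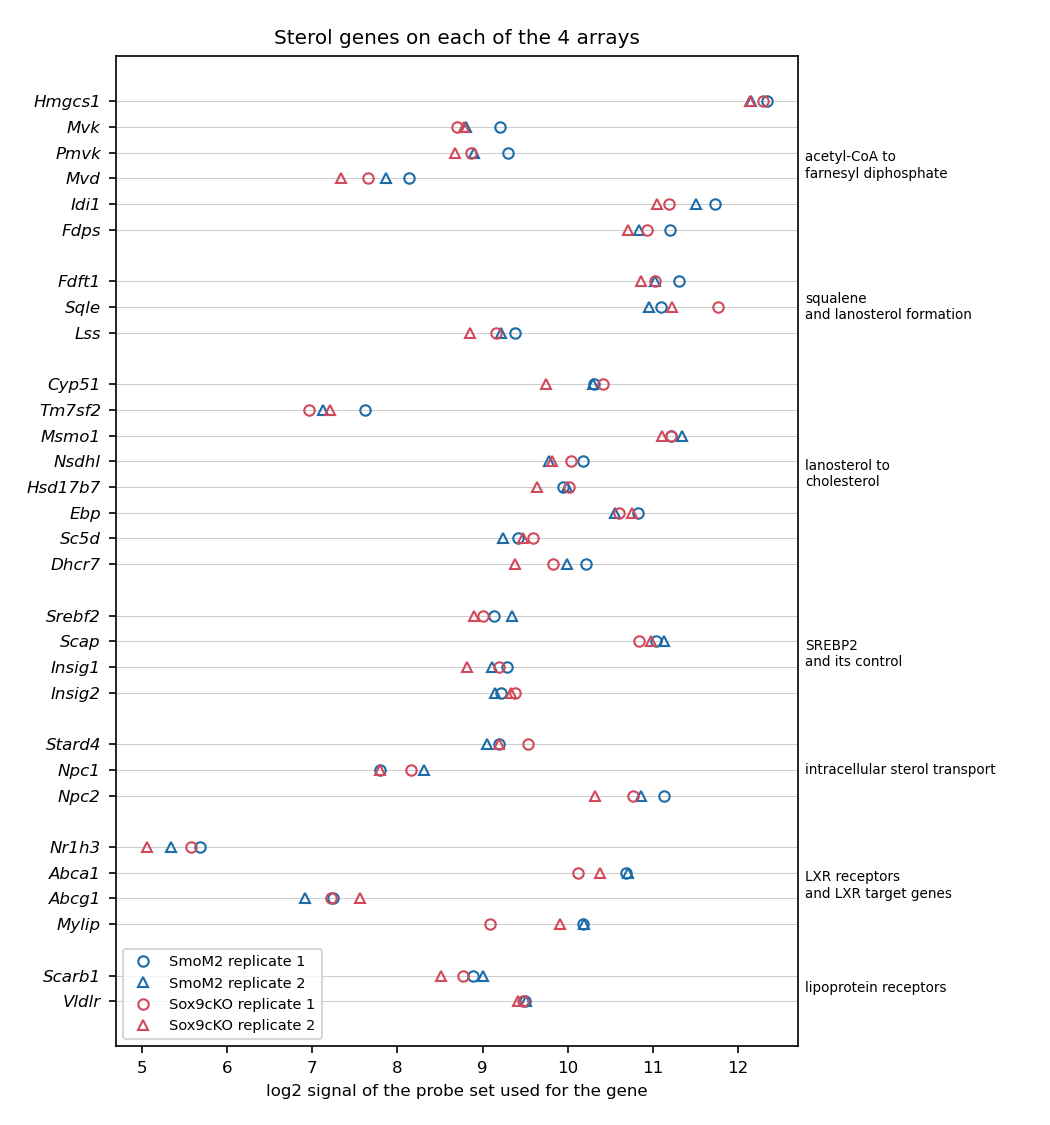
Log2 signal on each of the 4 arrays (circles replicate 1, triangles replicate 2; blue SmoM2, red Sox9cKO) at the probe set used for each of the 30 sterol genes, grouped by role; positions of different genes are not comparable, since each probe set has its own brightness. The SmoM2 and Sox9cKO symbols of a gene lie close together or interleave, as for Hmgcs1 at 12.34, 12.15, 12.29 and 12.14, with wider spacing for Idi1, Abca1 and Mylip.

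SREBP2 and the proteins that control it differed little between the genotypes, with a median difference of -0.19 over 4 genes. Srebf2 read 9.14 and 9.35 in SmoM2 and 9.01 and 8.90 in Sox9cKO (difference -0.29, SE 0.14, adjusted p = 0.369). Both of its probe sets gave negative differences, -0.29 and -0.32. Scap, the sterol sensor that escorts SREBP2, read 11.04 and 11.13 against 10.84 and 10.98 (difference -0.18, adjusted p = 0.600). Insig1, an SREBP2 target as well as a brake on it, overlapped between genotypes at 9.29 and 9.11 against 9.19 and 8.82 (difference -0.20, adjusted p = 0.650). Insig2, the related brake, was higher in both Sox9cKO arrays, at 9.22 and 9.15 against 9.38 and 9.34 (difference 0.18, SE 0.13, adjusted p = 0.585). All 3 Insig2 probe sets gave positive differences, from 0.12 to 0.29.

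Among transport genes, Npc2 had the largest difference. Npc2, the soluble protein that picks up cholesterol inside lysosomes, read 11.13 and 10.86 in SmoM2 and 10.77 and 10.32 in Sox9cKO (difference -0.45, SE 0.19, adjusted p = 0.276). All 4 Npc2 probe sets gave negative differences, from -0.48 to -0.31, and none of them overlapped between genotypes. Npc1, the membrane protein that takes cholesterol over from Npc2, did not follow this order, at 7.80 and 8.32 against 8.16 and 7.79 (difference -0.08, adjusted p = 0.901). Its replicates of each genotype were further apart than the genotypes. Stard4, a cytosolic sterol carrier, read 9.19 and 9.06 against 9.53 and 9.19 (difference 0.24, adjusted p = 0.538), with the nearest arrays of the genotypes almost level.

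None of the LXR target genes passed the test. Mylip, a ubiquitin ligase that sends lipoprotein receptors to degradation, read 10.17 and 10.20 in SmoM2 and 9.08 and 9.91 in Sox9cKO, a difference of -0.69 (SE 0.25, adjusted p = 0.209). Its SmoM2 arrays were nearly equal, while the Sox9cKO arrays were 0.83 apart. Without Sox9cKO replicate 2 the Mylip difference was -1.10, and without Sox9cKO replicate 1 it was -0.27. With the replicate number as a block, a pairing that no label states, Mylip was called (difference -0.69, limma adjusted p = 0.0418). Abca1, the transporter that loads cholesterol onto apolipoproteins, read 10.69 and 10.71 against 10.12 and 10.38 (difference -0.45, SE 0.15, adjusted p = 0.158). All 3 Abca1 probe sets gave negative differences with arrays that did not overlap, at -0.45, -0.63 and -0.72, and the adjusted p over probe sets was lowest, at 0.0607, for the probe set at -0.63. Abcg1, a further exporter, had positive differences at its probe sets, 0.31 and 0.25, but overlapping arrays at the probe set used for the gene (7.25 and 6.92 against 7.22 and 7.57, adjusted p = 0.453). Nr1h3, which encodes LXR alpha, was the only gene of the 30 below the median of all gene values, at 5.68 and 5.35 against 5.58 and 5.06 (difference -0.19, adjusted p = 0.728). Abca1 and Nr1h3 are also expressed in macrophages and Langerhans cells. Of 12 markers of these cells 0 were called by limma, against 6.19% of all genes. At an unadjusted p under 0.05 there were 4 (33.3%), against 17.8% of all genes. Of the 12 differences 9 were above 0 and 3 below, with a median of 0.23. The log2 of the summed marker signal was 8.94 and 8.87 in SmoM2 against 9.11 and 9.13 in Sox9cKO. The part of these cells in the Abca1 values was not tested.

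The lipoprotein receptors Scarb1 and Vldlr did not pass either. Scarb1, the receptor that takes cholesterol from high-density lipoprotein, read 8.89 and 9.00 against 8.78 and 8.51 (difference -0.30, SE 0.15, adjusted p = 0.370), with negative differences at its 3 probe sets. Vldlr, a receptor for triglyceride-rich lipoproteins and a target of the ligase Mylip, read 9.50 and 9.52 against 9.48 and 9.42 at the probe set used for the gene (difference -0.06, 95% interval -0.37 to 0.25). Of its 6 probe sets 5 gave negative differences, down to -0.38 at a pair of dimmer ones (adjusted p = 0.247 and 0.374 over probe sets), and with probe sets averaged the Vldlr difference was -0.18 (adjusted p = 0.494).

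For the synthesis enzymes, the median difference between replicates of a genotype was about as large as that between the genotypes. At the probe set used for each gene, 15 of the 17 synthesis enzymes were lower in SmoM2 replicate 2 than in replicate 1, with a median difference of -0.22. In Sox9cKO 14 were lower in replicate 2 than in replicate 1, with a median of -0.19. The same medians over all genes were -0.02 and 0.02, and 53% and 46.7% of all genes were lower in replicate 2. Other probe sets of these enzymes did not all keep this order. The second Idi1 probe set was higher in replicate 2 of both genotypes (10.34 and 10.56 in SmoM2, 10.07 and 10.32 in Sox9cKO). The second Mvd probe set was lower in replicate 2 of both (8.01 and 7.68 in SmoM2, 7.51 and 7.31 in Sox9cKO). The median genotype difference of the 17 enzymes was -0.22. For 12 of the 17 the genotype difference was smaller than the larger of the replicate differences, as it was for 18 of the 30 sterol genes. The share of all genes for which this held was not computed, so the count does not set these genes apart from others. Averaged over the enzymes, log2 signal stood at 10.20 and 9.98 for SmoM2 and at 10.01 and 9.81 for Sox9cKO, so SmoM2 replicate 2 and Sox9cKO replicate 1 were level.

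Labelling controls and sebocyte markers also differed among the arrays. The spiked labelling controls averaged 9.00 and 8.30 in SmoM2 and 9.19 and 7.66 in Sox9cKO, lower in replicate 2 of each genotype, and Actb read higher at its 3' than at its 5' control probe set by 0.74 and 0.46 against 0.75 and 0.52. Sebocytes, the lipid-making cells of the sebaceous gland, express many sterol genes. Of 16 sebocyte markers that were read, 3 fell in Sox9cKO (Prdm1, Cidea and Plin2) and none rose, 18.8% called against 6.19% of all genes, with 10 differences below 0 and 6 above, a median difference of -0.34 and mean log2 signals of 8.89 and 8.42 in SmoM2 against 8.07 and 7.95 in Sox9cKO. The mean of the 30 sterol genes, 9.75 and 9.61 against 9.58 and 9.43, had its highest and lowest values on the same arrays as the sebocyte mean. The labelling controls were lowest on the same array too, but highest in Sox9cKO replicate 1. The log2 of the summed sebocyte signal was nearly even, at 14.92 and 14.84 against 14.78 and 14.81. Of the defining sebocyte markers, Pparg was at 5.95 in SmoM2 replicate 1 and at 4.32 to 4.76 in the other arrays, and Scd3 at 7.60 against 5.27 to 6.22. Elovl4 and Scd1, on the same list, lay higher in both Sox9cKO arrays, with differences of 0.34 and 0.28 that did not pass (adjusted p = 0.244 and 0.453). The part of labelling or of sebocytes in the sterol values was not tested.

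**Figure D3:**
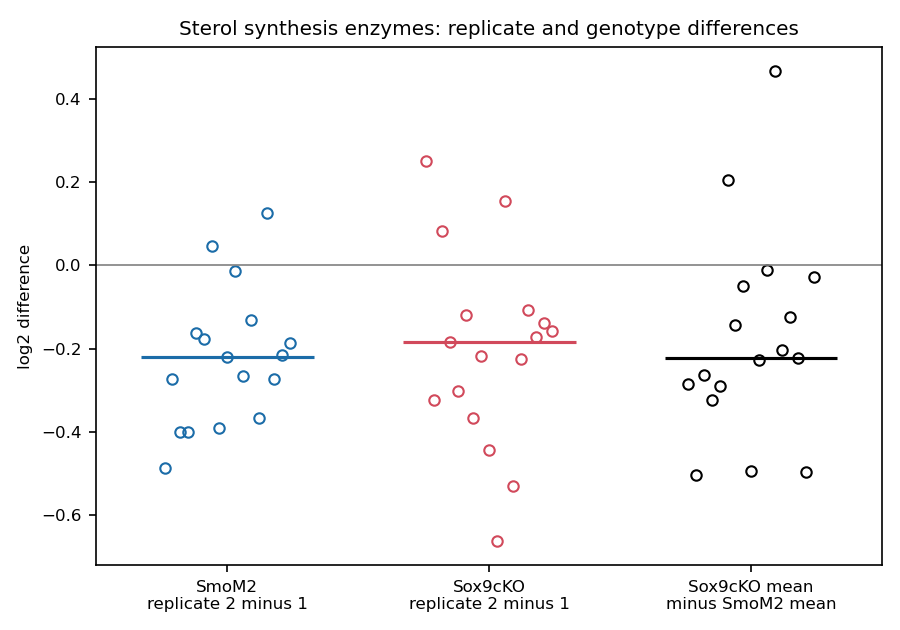
Log2 differences of the 17 sterol synthesis enzymes (circles) between replicates of SmoM2, between replicates of Sox9cKO and between the genotype means, with the median of each column as a line. The medians are -0.22, -0.19 and -0.22, and the points run from -0.49 to 0.13 between SmoM2 replicates, from -0.66 to 0.25 between Sox9cKO replicates and from -0.50 to 0.47 between genotypes, where Sqle is the highest.

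A single probe set of the 70 passed the test, and it belonged to Sc5d. It was called at an adjusted p under 0.05 over probe sets, where 4.21% of all probe sets were. This probe set, the second brightest of the gene, fell by 1.45 (SE 0.14, adjusted p = 0.00299, limma over probe sets), from 7.92 and 7.78 in SmoM2 to 6.34 and 6.45 in Sox9cKO. Replicates were close and the genotypes were more than 1 log2 unit apart. The brightest, which stood for the gene above, gave 0.21, and the dimmest, at 4.57 to 4.97, gave 0.03. The Sc5d probe sets therefore disagreed, and the value of the gene depends on which is read: with their mean, the difference was -0.40 (adjusted p = 0.160). The call held in every fit that kept probe sets apart, with differences from -1.53 to -1.38.

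Probe sets of a gene disagreed in sign elsewhere as well. Of the 20 sterol genes with several probe sets, 10 had only negative differences, 2 only positive and 8 both. Over all 70 probe sets, 51 differences were negative and 19 positive. Mvk gave -0.26 at the probe set used for the gene and 0.29 at the other, each with arrays that did not overlap. Fdft1 gave -0.22, 0.02, 0.13 and 0.43 at its 4 probe sets. At a further Cyp51 probe set, Sox9cKO replicate 2 stood apart at 6.71, against 9.63 in Sox9cKO replicate 1 and 9.35 and 8.82 in SmoM2 (difference -0.91, SE 0.81, adjusted p = 0.697), the same array that was low at the main Cyp51 probe set. The dimmest Cyp51 probe set was lower in both Sox9cKO arrays, at 6.38 and 6.31 in SmoM2 against 6.08 and 6.07 (difference -0.27, limma adjusted p = 0.419 over probe sets).

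**Figure D4:**
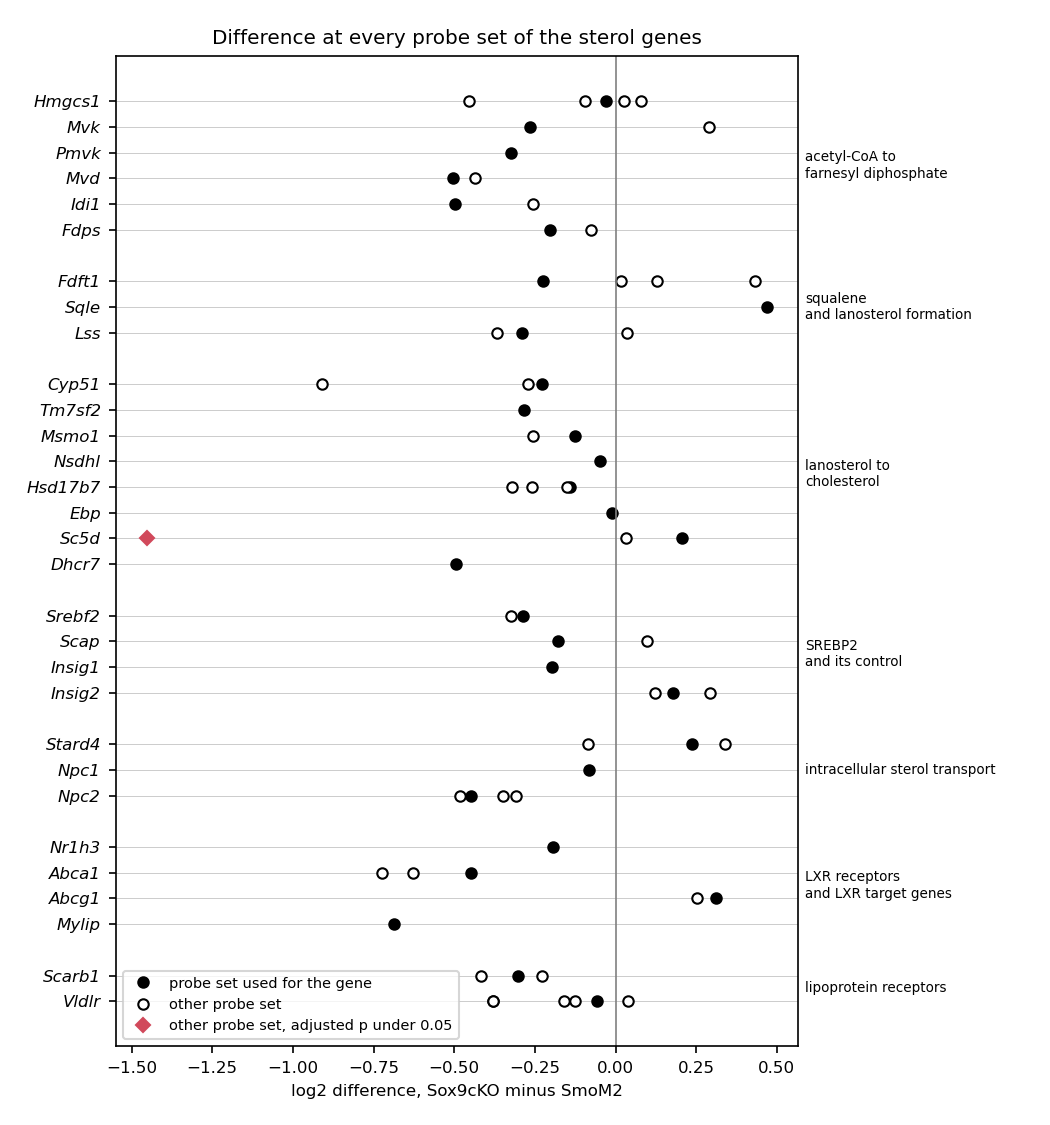
Log2 difference between Sox9cKO and SmoM2 at each of the 70 probe sets of the 30 sterol genes; filled points are the probe set used for the gene, open points its other probe sets, and the diamond is the probe set with an adjusted p under 0.05. The diamond, Sc5d at -1.45, stands left of all other points, and the points of Mvk and Fdft1 lie on both sides of 0.

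Among further genes of sterol metabolism, Ch25h and Cyp7b1 passed the test. Of 29 further genes on a list of sterol modification, storage, sensing and trafficking, 24 were read, of which 1 rose (Ch25h) and 1 fell (Cyp7b1), 8.33% against the 6.19% of all genes, with a median difference of -0.09. Ch25h, the hydroxylase that turns cholesterol into an oxysterol, read 4.71 and 4.81 in SmoM2 and 7.12 and 6.80 in Sox9cKO. It rose by 2.20 (SE 0.16, a 4.58-fold difference, adjusted p = 0.000529), from a dim signal, below the median of all gene values, so the size of the rise is not exact. Cyp7b1, a hydroxylase that acts on oxysterols, read 9.45 and 9.23 in SmoM2 and 7.23 and 6.78 in Sox9cKO. It fell by 2.34 (SE 0.19, a 5.06-fold difference, adjusted p = 0.000827). A second Cyp7b1 probe set fell by 2.33 (adjusted p = 0.00343 over probe sets), and the remaining one was dim, at 3.59 to 3.97, with overlapping arrays. For both genes the genotypes were several times further apart than the replicates. Cyp27a1, a further enzyme that forms an oxysterol, did not pass and had overlapping arrays, at 7.34 and 7.27 against 6.95 and 7.70 (difference 0.02, adjusted p = 0.980).

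The other further genes did not pass. Srebf1, which encodes SREBP1, the relative of SREBP2 that drives fatty acid synthesis, read 10.99 and 10.94 against 10.51 and 10.62 (difference -0.40, adjusted p = 0.168). Lipa, the lysosomal lipase that frees cholesterol from its esters, read 7.36 and 7.35 against 7.02 and 6.96 (difference -0.37, adjusted p = 0.193). Replicates of both genes were close, and their genotypes did not overlap. Of 13 fatty acid synthesis genes that were read, 1 fell (Elovl5, by 0.77, adjusted p = 0.0498) and none rose, 7.69% called against 6.19% of all genes, with a median difference of -0.09. Scd1 and Fasn, a desaturase and the fatty acid synthase, had differences of 0.28 and -0.18 (adjusted p = 0.453 and 0.717).

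**Figure D5:**
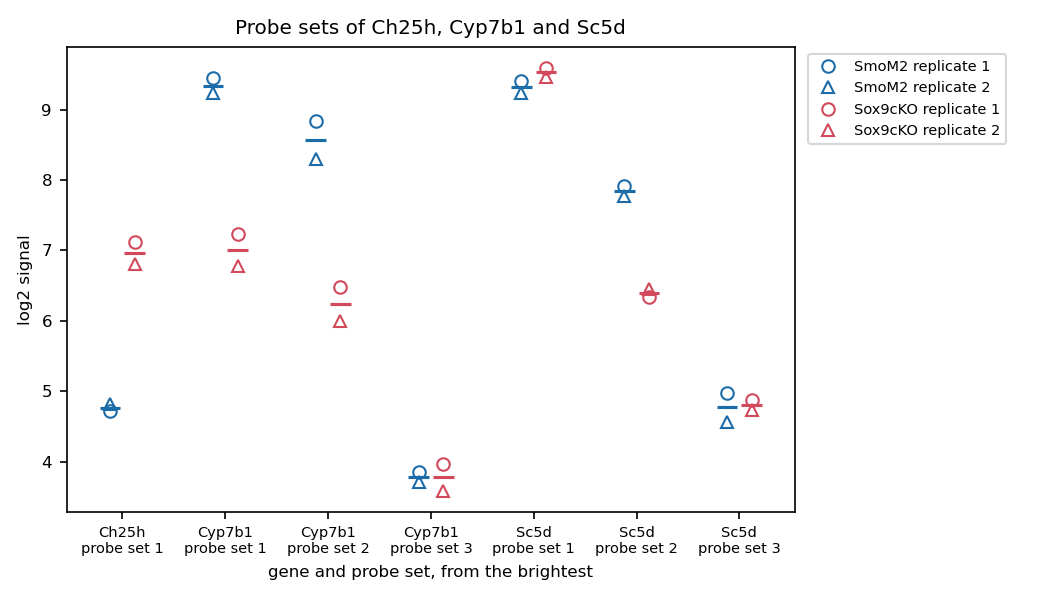
Log2 signal on each array (circles replicate 1, triangles replicate 2; blue SmoM2, red Sox9cKO; lines are means of 2 arrays) at the probe sets of Ch25h, Cyp7b1 and Sc5d, numbered within a gene from the brightest. Ch25h lies higher in Sox9cKO (7.12 and 6.80 against 4.71 and 4.81), and the brighter pair of Cyp7b1 probe sets and the second Sc5d probe set lie lower. The brightest Sc5d probe set lies slightly higher in Sox9cKO (9.59 and 9.47 against 9.41 and 9.24), and the dimmest Sc5d and Cyp7b1 probe sets are nearly level.

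Marker lists of the sorted cells and of others were read on the same fit. Of 11 basal keratinocyte markers 2 fell (Lamb3 and Lama3), of 10 suprabasal markers 4 rose (Lor, Dsg1a, Tgm3 and Flg), and of 8 bulge markers 3 fell and 1 rose, where 3.53% of all genes fell and 2.66% rose. The basal differences were below 0 for 9 and above for 2, with a median of -0.45. At an unadjusted p under 0.05 by limma, 7 of the basal markers differed (63.6%), against 17.8% of all genes. The suprabasal differences were above 0 for 8 and below for 2, with a median of 0.77. The bulge differences were above 0 for 4 and below for 4. Of 5 T cell markers 1 rose (Thy1) and all had differences above 0, while the T cell receptor subunits Cd3d, Cd3e and Cd3g stayed between 3.55 and 5.89. Of 8 fibroblast markers 1 rose (Dcn), and 4 differences were above 0 and 4 below. Col1a2 had a difference of 0.72 with overlapping arrays (adjusted p = 0.273). Fn1 had one of -0.45, with both Sox9cKO arrays below both SmoM2 arrays (limma adjusted p = 0.320). Pdgfra had one of 0.35 (adjusted p = 0.385), and Col1a1 and Col3a1 read 3.71 to 4.51. Of 6 endothelial and 6 melanocyte markers 0 were called by limma (0 and 1 at an unadjusted p under 0.05). The part of these cells in the sterol values was not tested.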

How the data were processed

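The authors deposited a log2 signal for every probe set on each array. How signals were normalized and summarised was not given in the sources used here. The submitters' processing notes list R 2.14.0 with no stated role. That they are log2 values was judged by their range. Similar array medians mean that a change shared by most genes could not be seen. Of 45101 probe sets, 34945 with 1 gene symbol (updated through the entrez ID for 34741) were used. Each of 18193 genes was represented by its brightest probe set (highest mean of 4 arrays). Genotypes were compared with limma 3.58.1 in R 4.3.3 (lmFit and eBayes, no covariate, two-sided, 7.17 degrees of freedom), adjusted by Benjamini-Hochberg over all genes, with a threshold of 0.05. The procedure was tested on simulated data. With 2 arrays against 2, an exact permutation test of 1 gene cannot go below p = 0.333. Arrays give no depth, so their number limits the precision.

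The genes and lists were chosen with earlier results of these data known. Every sterol gene is accounted for, and of each other list at most 4 members by smallest p are named, plus Sox9. Also named are genes used for sample checks or singled out after their values were seen (Cyp27a1, Elovl4, Scd1, Fasn, Krt5, Krt10, Krt14, Krt15, Cd34, Postn, Lgr5, Pparg, Scd3, Cd3d, Cd3e, Cd3g, Col1a1 and Col3a1). Lists covered further sterol genes, fatty acid synthesis, sebocytes, basal and suprabasal keratinocytes, macrophages and Langerhans cells, T cells, fibroblasts, endothelium, melanocytes and bulge cells. Alternatives were other probe set choices, a filter on dim genes, other normalizations, another variance prior, a replicate block and each array left out.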

Additional observations from a re-analysis of the deposited data

How the results depend on the processing

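The absence of calls among the 30 sterol genes held with probe sets averaged per gene, with probe sets of unambiguous endings, with dim genes left out, with quantile normalization, with arrays centred on their medians and with an intensity trend and robust prior, where the smallest adjusted p ran from 0.0569 upward. With every probe set tested there was 1 call, the Sc5d probe set. Replicate numbers are shared between the genotypes, and no label says that a number marks a shared step. Deviations of same-numbered arrays correlated at r = 0.09 over all genes. Labelling controls were lower in replicate 2 of both genotypes, as were most synthesis enzymes at the probe set used for the gene. Other probe sets of these enzymes did not all keep this order. Whether the numbers pair the arrays is not settled. With the replicate number as a block, 1 sterol gene was called (Mylip, adjusted p = 0.0418) and 1919 genes in all, against 1126. With 1 array left out in turn, 0 to 1 sterol genes and 534 to 900 genes in all were called, the lone array being assumed to vary like the other group, and the median difference of the sterol genes ran from -0.29 without Sox9cKO replicate 1 to -0.089 without Sox9cKO replicate 2. The 1 sterol gene was Mylip, without Sox9cKO replicate 2. Of 359 values of single sterol genes under the alternatives, 16 changed sign, none of them called. Alternatives for Ch25h, Cyp7b1 and the Sc5d probe set were added after seeing the data. Their calls held throughout, with Cyp7b1 at -1.56 where its probe sets were averaged; Ch25h gave no value with dim genes left out. The median of all genes moved by less than 0.1 under each normalization.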
